A study of Mus musculus with 6 samples.

Results

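The integrated stress response genes described here were 10 genes centered on the transcription factor ATF4: *Atf4*, *Atf5*, *Ddit3*, *Chac1*, *Trib3*, *Asns*, *Psat1*, *Phgdh*, *Sesn2*, and *Nupr1*. Array features that were not controls and carried one of these gene names were taken, which gave 13 probes of 10 genes among 55681 probes and 34844 gene names. The cells were bone marrow–derived macrophages of wild type female mice of strain C57/B6, aged 6 to 8 weeks per the labels (the study's methods give another range), differentiated over 7 days with L929-conditioned medium. The 3 groups were untreated cells, cells given LPS, a bacterial cell wall component sensed by TLR4, for 4 h (LPS), and cells given 10 µM HBX41108, a small molecule inhibitor of the deubiquitinase USP7, for 30 min before the same LPS (LPS+USP7i). The series description gives the LPS dose as 100 ng/ml and the sample labels as 100 ng/µl. Each group was measured on 2 arrays from independent experiments, so the number of arrays limits how precise any value can be. Whether the cells given LPS alone also received the solvent of the inhibitor is not stated in the sources used here, so solvent and inhibitor cannot be told apart. No group received the inhibitor without LPS. Below, words such as raised, lowered, rise, and fall name differences between these groups and not their cause.

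In the integrated stress response, kinases that sense unfolded protein, double-stranded RNA, amino acid shortage, or heme shortage phosphorylate the translation factor eIF2α. Most protein synthesis then slows, while the mRNA of ATF4 is translated more. ATF4 turns on genes for amino acid supply, redox balance, and, with its target CHOP (encoded by *Ddit3*), cell death, and macrophages use the same kinases in antiviral and inflammatory responses.

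All 6 arrays lay on 1 slide that was read in 1 scan. An array's position on the slide has a pair of numbers, of which the first was the replicate number, and the second was 1 for untreated cells, 2 for LPS, and 4 for LPS+USP7i, so slide position and treatment cannot be told apart. By the call of the scanner software, the untreated arrays had 27467 and 27126 spots well above background, the LPS arrays 25223 and 25002, and the LPS+USP7i arrays 26415 and 25290, and 0 spots were saturated. Replicates were furthest apart in LPS+USP7i cells, where the SD of their difference was 0.40 on the log2 scale over the 20721 probes that were well above background on all 6 arrays, against 0.29 in untreated cells and 0.34 with LPS. Values below are quantile-normalized log2 signals, given for replicate 1 and then replicate 2 of a group, and a level of one probe cannot be set against that of another. Differences are between group means on the log2 scale, with the standard error (SE) and the adjusted p of limma, Benjamini-Hochberg adjusted over 55680 probes, and a probe was called changed at an adjusted p under 0.05. A gene with several probes was counted by its brightest probe, that of highest mean signal. In RNA from whole cultures, fewer cells of a type and less RNA per cell cannot be told apart.

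With the USP7 inhibitor, 6 of the 10 genes differed from LPS alone: *Atf4*, *Atf5*, *Asns*, *Chac1*, and *Trib3* were higher and *Nupr1* was lower. With the replicate number as a block, 4 of the 10 were called (without *Atf5* and *Nupr1*), and in a fit of LPS and LPS+USP7i arrays alone 0 were (limma, 8 at an unadjusted p under 0.05). Among all 34844 gene names, 5.42% were called higher and 4.29% lower in this comparison, and among the 18343 names that exceeded background clearly in 1 group or more (on both its arrays), to which all 10 genes belonged, 9.55% were higher and 7.32% lower. The difference was positive in 7 of the 10 genes, with a median of 0.95, against medians of 0.00 over all names and 0.05 over the 18343. LPS itself raised *Nupr1* and lowered *Chac1* and *Trib3*, 1 and 2 of the 10 genes, where 7.99% of all names were higher and 12.7% lower, and 13.8% and 22.9% of the 18343. This balance depended on the scaling: by probe, 3959 were higher and 5931 lower, and with 75th percentile scaling 21811 were higher and 5642 lower. The median difference of the 10 genes with LPS was −0.48, against −0.19 over the 18343 names. In LPS+USP7i compared with untreated cells, *Asns* and *Nupr1* were higher and 0 of the 10 were lower, against 6.15% and 8.78% of all names and 10.8% and 15.7% of the 18343. These 3 comparisons share arrays and are not independent of each other. The smallest two-sided p that exact permutation can reach with 2 arrays per group is 0.333, so the calls rest on the fit that pools the spread over probes and groups.

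**Figure D1:**
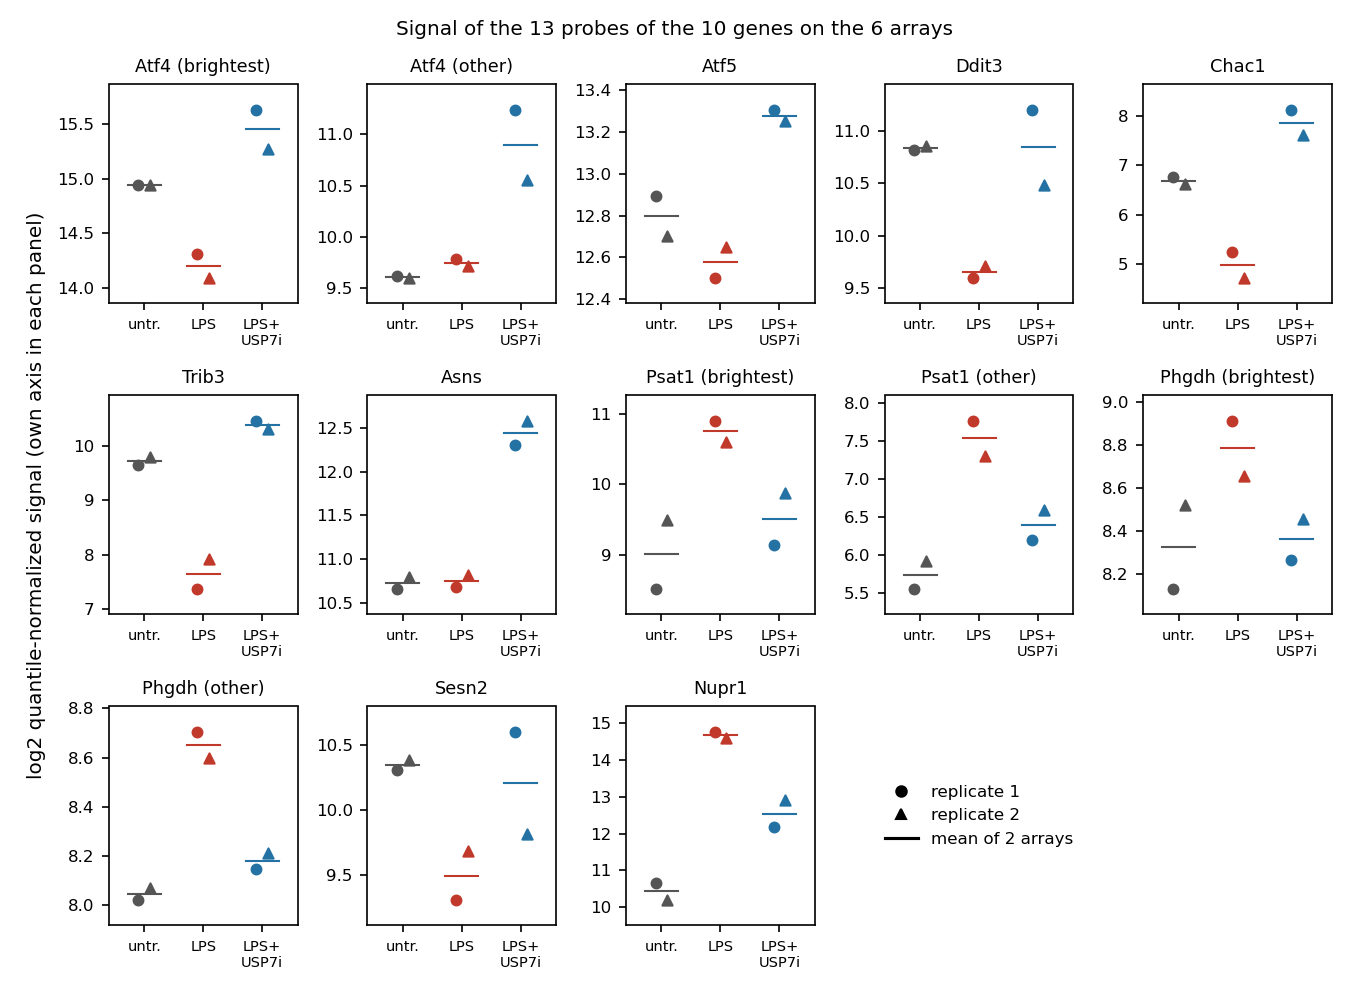
Quantile-normalized log2 signal of each of the 13 probes (vertical axis, scaled separately in every panel) in untreated, LPS, and LPS+USP7i cells (horizontal axis), with replicate 1 as circles, replicate 2 as triangles, and the mean of the 2 arrays as a line. *Trib3* and *Chac1* are lowest with LPS and highest with LPS+USP7i, *Asns* is high with LPS+USP7i alone, and *Nupr1* is highest with LPS.

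Of the genes for transcription factors, *Atf4* itself has 2 probes on chromosome 15 (build mm9), from 80087902 to 80087961 and from 80086639 to 80086698. The brighter was at 14.94 and 14.94 in untreated, 14.31 and 14.09 in LPS, and 15.63 and 15.27 in LPS+USP7i cells. The groups did not overlap, and LPS was the lowest and LPS+USP7i the highest of them. The level with the inhibitor was 2.37-fold that with LPS (log2 difference of 1.25, SE 0.16, adjusted p = 0.0281), while the difference of LPS from untreated cells, −0.74, lay just outside the threshold (adjusted p = 0.0502). That difference was −0.13 with 75th percentile scaling (adjusted p = 0.414) and −0.30 with the median over the probes (adjusted p = 0.471), while it was called lower in 8 of 16 alternatives, among them normexp (adjusted p = 0.0199) and the replicate block (adjusted p = 0.0450). Of the 8, the fits without an LPS+USP7i array in effect repeat the fit of untreated and LPS arrays alone. With 75th percentile scaling, *Atf4* was 0.95 higher with LPS+USP7i than in untreated cells (adjusted p = 0.00680), against 0.51 with quantile normalization (adjusted p = 0.140). At the dimmer probe the values were 9.62 and 9.60, 9.79 and 9.71, and 11.24 and 10.56. There untreated and LPS cells lay close together (0.14, adjusted p = 0.843), and both inhibitor arrays were above them by 1.15 against LPS (adjusted p = 0.0779) and 1.29 against untreated cells (adjusted p = 0.0490). The probes thus had the same direction with the inhibitor and passed the threshold in different comparisons.

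*Atf5*, which encodes a bZIP factor related to ATF4 with a role in the mitochondrial stress response, was measured by a probe on chromosome 7 from 52067627 to 52067686. Its signal was 12.89 and 12.70 in untreated, 12.50 and 12.65 in LPS, and 13.31 and 13.25 in LPS+USP7i cells. Both arrays with the inhibitor were above the other 4, and the rise over LPS was 0.70 (SE 0.10, adjusted p = 0.0360), a 1.63-fold change. That call was lost in 11 of 16 alternatives. Among them were 75th percentile scaling (0.54, adjusted p = 0.0793), the deposited normalized values (0.65, adjusted p = 0.104), the replicate block (adjusted p = 0.0690), the fit of LPS and LPS+USP7i arrays alone (adjusted p = 0.0781), and each fit with an array left out. Those without an untreated array in effect repeat the fit of LPS and LPS+USP7i arrays alone, so the 11 are not all separate tests. The difference of LPS from untreated cells was −0.22 and did not pass (adjusted p = 0.273), and it had the opposite sign, 0.21, with 75th percentile scaling.

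*Ddit3*, which encodes CHOP, a factor tied to cell death under prolonged stress, was measured by a probe whose parts lie between 126732518 and 126732821 on chromosome 10. Untreated cells had 10.82 and 10.86, LPS cells 9.60 and 9.71, and LPS+USP7i cells 11.21 and 10.49. Both LPS arrays were below all others, and the inhibitor arrays lay on either side of the untreated pair. Neither difference passed the threshold: −1.19 for LPS against untreated (SE 0.26, adjusted p = 0.0547) and 1.20 for LPS+USP7i against LPS (SE 0.26, adjusted p = 0.0803). The second was 1.61 in replicate 1 and 0.78 in replicate 2. With dim probes left out, which reduces the number of probes tested, both passed (adjusted p = 0.0144 and 0.0228). Both also passed with normexp (adjusted p = 0.0101 and 0.0154), and neither with the replicate block (adjusted p = 0.0820 and 0.111). With 75th percentile scaling the difference with LPS passed (adjusted p = 0.0164) and that with the inhibitor did not (adjusted p = 0.0590).

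*Nupr1* encodes a small stress-induced chromatin protein, and its probe lies on chromosome 7 from 133766978 to 133767037. It went from 10.65 and 10.20 in untreated cells to 14.77 and 14.61 with LPS, and was at 12.19 and 12.90 with LPS+USP7i. The 3 groups did not overlap, and the inhibitor arrays lay between the other groups. LPS raised it 19.3-fold (4.27, SE 0.31, adjusted p = 0.00519). In the presence of the inhibitor it fell by 2.15 from the LPS level (SE 0.31, adjusted p = 0.0354), 4.43-fold, and remained 4.35-fold above untreated cells (2.12, adjusted p = 0.0258). With the replicate number as a block, neither of these calls with the inhibitor held (adjusted p = 0.0716 and 0.0568). Its direction with LPS and with the inhibitor was opposite to that of *Chac1* and *Trib3*.

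*Trib3* encodes a pseudokinase that binds ATF4 and AKT and is a CHOP target. Its probe, on chromosome 2 from 152163161 to 152163220, read 9.65 and 9.80 in untreated, 7.38 and 7.93 in LPS, and 10.46 and 10.30 in LPS+USP7i cells. The LPS arrays were far below the rest, and the inhibitor arrays were the highest. LPS lowered *Trib3* 4.20-fold (log2 difference of −2.07, SE 0.22, adjusted p = 0.00971). Against LPS the inhibitor raised it 6.61-fold (2.73, SE 0.22, adjusted p = 0.0151), by 3.08 in replicate 1 and 2.37 in replicate 2. The remaining 0.66 above untreated cells was not called (adjusted p = 0.160).

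*Chac1*, which encodes an enzyme that degrades glutathione and is induced by ATF4 and CHOP, had its probe on chromosome 2 from 119179990 to 119180049. The signals were 6.77 and 6.61 in untreated, 5.24 and 4.72 in LPS, and 8.13 and 7.61 in LPS+USP7i cells. The signal exceeded background clearly on all arrays but LPS replicate 2. As for *Trib3*, the groups did not overlap and their order was LPS, untreated, LPS+USP7i. It was lower with LPS (−1.71, SE 0.27, adjusted p = 0.0251), and higher with the inhibitor than with LPS (2.89, SE 0.27, adjusted p = 0.0187). Since LPS replicate 2 was not clearly above background, the size of both differences is uncertain. With normexp background correction, whose offset draws dim signals together, the latter was 1.70 (adjusted p = 0.00121), and with the deposited normalized values it was 2.43 (adjusted p = 0.00709). Compared with untreated cells the inhibitor arrays were 1.18 higher, which did not pass (adjusted p = 0.0743). This difference was called in 5 of 16 alternatives, among them the replicate block (adjusted p = 0.0323) and 75th percentile scaling (adjusted p = 0.0275).

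*Asns* encodes asparagine synthetase, a textbook target of ATF4 under amino acid shortage, and its probe lies on chromosome 6 from 7625171 to 7625228. It stood at 10.66 and 10.80 in untreated cells, at 10.68 and 10.82 with LPS, and at 12.31 and 12.58 with LPS+USP7i. Untreated and LPS arrays overlapped (0.02, adjusted p = 0.984), and both inhibitor arrays were far above them. The rise was 3.24-fold over LPS (1.69, SE 0.13, adjusted p = 0.0147) and 3.28-fold over untreated cells (1.71, SE 0.13, adjusted p = 0.00814). In the main fit, *Asns* was the gene of the 10 that was called higher with the inhibitor in both comparisons by its brightest probe. Some alternatives added others to *Asns*. With the replicate block, *Chac1* was also called in both (adjusted p = 0.0363 against LPS and 0.0323 against untreated cells). *Atf4* and *Chac1* were added with 75th percentile scaling, and *Atf5* and *Chac1* with normexp or with dim probes left out.

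Of the enzymes of serine synthesis, *Phgdh* and *Psat1* did not follow *Asns*. *Phgdh* encodes the enzyme of the committed step and has a pair of neighboring probes on chromosome 3, from 98117215 to 98117274 and from 98117303 to 98117361. The brighter read 8.13 and 8.52, 8.91 and 8.65, and 8.27 and 8.46 in untreated, LPS, and LPS+USP7i cells. The dimmer read 8.02 and 8.07, 8.71 and 8.60, and 8.15 and 8.21. At both probes the LPS arrays were the highest and the inhibitor arrays were close to the untreated ones. The tighter dimmer probe passed for LPS (0.61, SE 0.070, adjusted p = 0.0122) and for the inhibitor against LPS (−0.47, SE 0.070, adjusted p = 0.0376), while the brighter, by which the gene was counted, passed in neither (0.46 and −0.42, adjusted p = 0.216 and 0.309).

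*Psat1* encodes the aminotransferase of the next step and has 2 probes on chromosome 19, from 15979622 to 15979681 and from 15991586 to 15991645. The brighter had 8.52 and 9.50 in untreated, 10.90 and 10.60 in LPS, and 9.15 and 9.88 in LPS+USP7i cells, and the dimmer had 5.56 and 5.93, 7.76 and 7.30, and 6.20 and 6.59. LPS gave the highest values at both, and the inhibitor arrays lay below them. For LPS the differences were 1.74 (SE 0.45, adjusted p = 0.0792) and 1.79 (SE 0.25, adjusted p = 0.0194), so the dimmer probe alone passed. With the inhibitor they were −1.23 and −1.13 against LPS, neither past the threshold (adjusted p = 0.219 and 0.0840). Counted as a gene, *Psat1* was called higher with LPS in 5 of 16 alternatives. Among them were normexp (adjusted p = 0.0125) and 75th percentile scaling (adjusted p = 0.0277). *Psph*, which encodes the phosphatase of the last step and is not among the 10 genes, had the opposite direction. Its brightest probe differed by −0.48 with LPS and 0.52 with the inhibitor against LPS, neither called (adjusted p = 0.109 and 0.122). Its other probe fell by 1.10 with LPS and rose by 1.08 over LPS with the inhibitor (adjusted p = 0.0115 and 0.0248).

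*Sesn2*, which encodes sestrin 2, a leucine-sensing inhibitor of mTORC1 induced by ATF4 and by p53, was read by a probe on chromosome 4 from 132048858 to 132048917. Untreated cells gave 10.30 and 10.38, LPS cells 9.31 and 9.68, and LPS+USP7i cells 10.60 and 9.82. LPS was again lowest, and the inhibitor arrays were further apart than those of any other group and enclosed the untreated pair. No difference passed: −0.85 for LPS (adjusted p = 0.177) and 0.71 for the inhibitor against LPS (adjusted p = 0.306), with a 95% interval from −0.15 to 1.57.

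**Figure D2:**
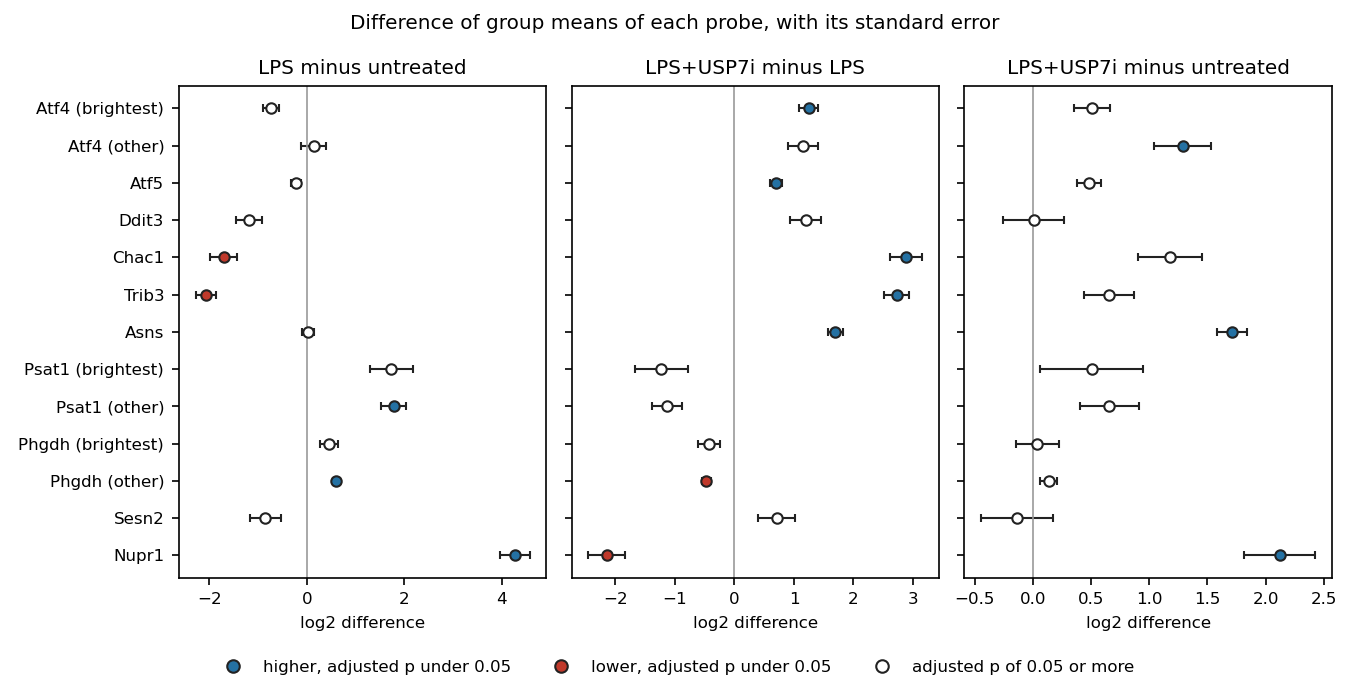
Log2 difference between group means (horizontal axes, scaled separately) for each probe (rows), with its standard error as a bar, in the 3 comparisons of 2 arrays against 2. Filled circles have an adjusted p under 0.05 and open circles do not. In LPS+USP7i minus LPS, *Chac1* (2.89, with an LPS signal close to background) and *Trib3* (2.73) lie furthest to the right and *Nupr1* (−2.15) furthest to the left. The order of *Chac1* and *Trib3* depended on the setting.

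The calls with the inhibitor depended on how the spread was estimated. In a limma fit of LPS and LPS+USP7i arrays alone, 0 of the 10 genes and 0 probes passed, although 8 of the 10 genes and 11235 probes had an unadjusted p under 0.05. For the 6 genes called in the fit of all arrays, the adjusted p there ran from 0.0612 for *Asns* to 0.0898 for *Atf4*. Leaving out untreated replicate 1 or untreated replicate 2 in effect repeats that fit for this comparison. A group left with 1 array adds nothing to the spread, so these are not further tests. Without LPS replicate 1, *Chac1* and *Trib3* passed (2 of 10), and without LPS replicate 2, *Trib3* did (1 of 10). *Ddit3* and *Asns* passed without LPS+USP7i replicate 1 (2 of 10), and without LPS+USP7i replicate 2 the number was 6, with *Ddit3* in place of *Atf5*. Some of the alternatives, such as another prior or the removal of an untreated array, leave the difference of LPS+USP7i from LPS as it was by construction. Under those that can change it, which altered the scaling, the background correction, the source of values, the flagged spots, the probe of a gene, or the LPS and LPS+USP7i arrays in the fit, each of the 10 genes kept its sign.

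For LPS against untreated cells, *Nupr1* passed under all 16 alternatives, with a difference between 4.04 and 4.56. *Trib3* passed in 14 of 16, all but the fits without untreated replicate 1 and without untreated replicate 2, where *Nupr1* was the 1 gene called. Without LPS replicate 1 and without LPS replicate 2, *Trib3* and *Nupr1* passed and *Chac1* did not. In the fit of untreated and LPS arrays alone, the number called rose to 5, with *Atf4* and *Ddit3* lower as well. Leaving out an LPS+USP7i array in effect repeats that fit. For LPS+USP7i against untreated cells, *Asns* was lost when untreated replicate 1 or untreated replicate 2 was left out, which gave 0 of 10 (limma, with 4 and 3 at an unadjusted p under 0.05). *Nupr1* was lost in the same fits and without LPS replicate 1, LPS replicate 2, or LPS+USP7i replicate 2, where *Asns* was the 1 gene called. The fits without an LPS array in effect repeat the fit of these 2 groups, where *Nupr1* was likewise not called (adjusted p = 0.0734). It was also lost with the replicate number as a block (adjusted p = 0.0568).

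**Figure D3:**
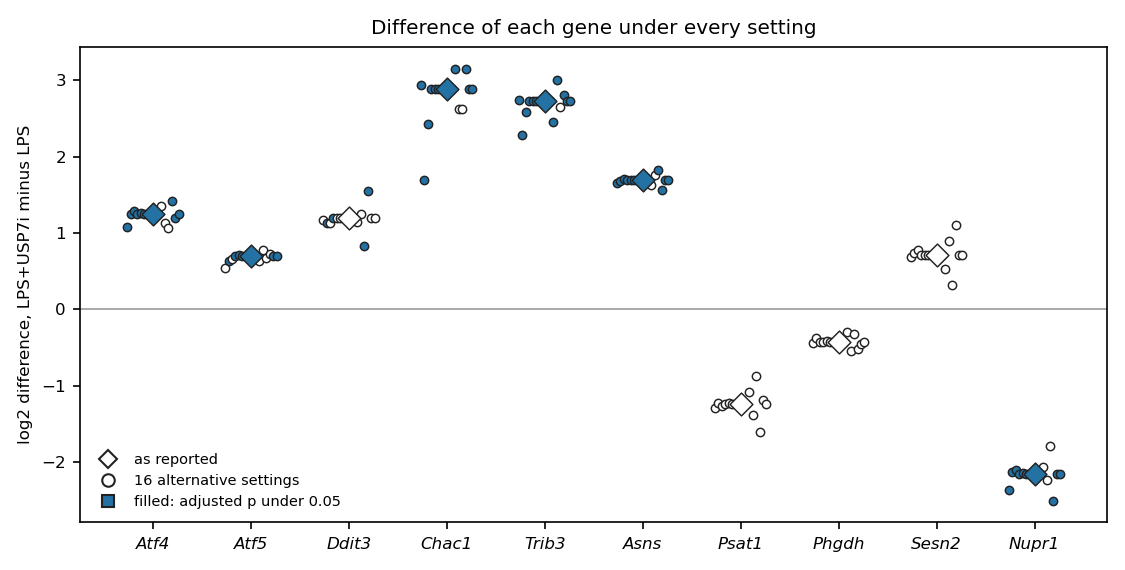
Log2 difference of each gene between LPS+USP7i and LPS (vertical axis) as reported (diamonds) and under the 16 alternative settings (circles, spread sideways for visibility), filled where the adjusted p is under 0.05. Several settings leave the difference as it was by construction. No gene changes sign under the others, while filled and open symbols mix for *Atf4*, *Atf5*, *Ddit3*, *Chac1*, *Trib3*, *Asns*, and *Nupr1*.

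Since several of the genes moved together with the inhibitor, their promoters were searched for TGATGNAA (N is any base), the core letters of the C/EBP-ATF response element to which ATF4 and C/EBP proteins bind as a pair. RefSeq promoters (assembly GRCm38.p6, another build than that of the probes), each from 250 bases before to 50 bases after a gene's start, were read on both strands. All 10 genes matched, with 12 promoters. The letters occurred in 4 of the 12, those of *Chac1*, *Trib3*, *Asns*, and *Nupr1*, and in 1304 of all 32851 promoters (3.97%). Stretches around these 4 matches are shown because they belong to the 3 genes with the largest rises and the 1 gene with a fall past the threshold in LPS+USP7i compared with LPS. They run 5′ to 3′ on the strand of the gene, with the match in capitals.
Chac1, chr2:119350992-119351116, plus strand, match starting 193 bases before the start: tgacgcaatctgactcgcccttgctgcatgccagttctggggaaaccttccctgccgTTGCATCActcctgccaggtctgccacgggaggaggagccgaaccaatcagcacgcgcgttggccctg
Trib3, chr2:152344028-152344057, minus strand, match starting 14 bases after the start: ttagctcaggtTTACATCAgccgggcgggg
Asns, chr6:7693210-7693292, minus strand, match starting 23 bases before the start: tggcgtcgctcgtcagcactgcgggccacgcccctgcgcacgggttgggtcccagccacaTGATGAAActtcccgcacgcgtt
Nupr1, chr7:126625513-126625640, minus strand, match starting 110 bases before the start: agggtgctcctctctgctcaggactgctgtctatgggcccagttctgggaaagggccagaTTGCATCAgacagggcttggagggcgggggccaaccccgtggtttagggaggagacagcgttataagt

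The match lies on the gene's own strand in *Asns* and on the opposite strand in *Chac1*, *Trib3*, and *Nupr1*, where the capitals show its reverse complement. The match in *Trib3* is in the transcribed part of the window and the other 3 are upstream of the start. The 4 promoters with a match thus belong to genes of both directions: *Nupr1* was lower with the inhibitor while the other 3 were higher. In the windows of *Atf4*, *Atf5*, *Ddit3*, *Phgdh*, *Psat1*, and *Sesn2* these letters were not found, which says nothing of sites elsewhere. Among related genes with a promoter, 5 of 9 aminoacyl-tRNA synthetase and tRNA export genes of the ATF4 response held them. These were *Aars*, *Gars*, *Iars*, *Tars*, and *Yars*. The letters were also held by 3 of 12 genes for serine, one-carbon, and proline enzymes, 2 of 7 amino acid transporter genes, and 2 of 11 bZIP partners. The count was 3 of 15 for other targets, 1 of 7 for eIF2 and eIF2B subunits, and 0 of 18 for genes of the XBP1 and ATF6 arms. Of all symbols, 4.51% held them. None was found in 4 kinases of eIF2α, 1 phosphatase subunit, 6 genes of mitochondrial stress, 8 of sestrins and mTORC1 inputs, 3 relatives, or the lists of cell type markers.

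Upstream of ATF4, the 4 eIF2α kinase genes went different ways. *Eif2ak3* (PERK, the sensor of unfolded protein in the endoplasmic reticulum) read 9.37 and 9.40 in untreated, 6.11 and 6.87 in LPS, and 8.28 and 8.08 in LPS+USP7i cells. It was lowest with LPS without overlap, falling by 2.90 (SE 0.28, adjusted p = 0.00851), and the inhibitor raised it by 1.69 over LPS (adjusted p = 0.0465). *Eif2ak2* (PKR, the sensor of double-stranded RNA and an interferon-inducible gene) read 10.33 and 10.10, 13.05 and 12.95, and 11.04 and 11.47, the opposite order. LPS raised it by 2.78 (SE 0.18, adjusted p = 0.00452), and it fell by 1.74 with the inhibitor (adjusted p = 0.0216). *Eif2ak4* (GCN2, the sensor of uncharged tRNA) fell by 1.21 with LPS and was 1.10 higher with the inhibitor than with LPS at its brightest probe (adjusted p = 0.00854 and 0.0220). Of its 2 other probes, the dimmest moved in the same directions but was not well above background on either LPS array, and the other gave 0.22 and 0.52, neither called. *Eif2ak1* (HRI, the heme-regulated kinase) had differences of −0.04 and 0.01 (adjusted p = 0.852 and 0.997).

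Of the subunits of the phosphatase that reverses eIF2α phosphorylation, *Ppp1r15a* (GADD34, itself an ATF4 and CHOP target) read 11.66 and 11.59 in untreated, 14.01 and 13.68 in LPS, and 14.80 and 13.82 in LPS+USP7i cells. LPS raised it by 2.22 (adjusted p = 0.0279), and the inhibitor arrays overlapped with the LPS arrays (0.47, adjusted p = 0.577). *Ppp1r15b*, the constitutive subunit, was also raised by LPS, by 2.49 (adjusted p = 0.00246), and differed by −0.25 with the inhibitor (adjusted p = 0.133). The catalytic subunit *Ppp1ca* passed in neither comparison (−0.48 and −0.05, adjusted p = 0.177 and 0.949). Among the 8 genes for subunits of eIF2 and of its exchange factor eIF2B, LPS raised *Eif2s1* (0.46) and *Eif2s3x* (0.41) and lowered *Eif2b4* (−0.99) and *Eif2b2* (−0.60), with adjusted p values of 0.0155, 0.0387, 0.0272, and 0.0376. With the inhibitor, *Eif2s2* was 0.58 higher (adjusted p = 0.0180), and the other 7 were not called. Of the 18343 names, 13.8% were higher and 22.9% lower with LPS, and 9.55% and 7.32% with the inhibitor against LPS.

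The 13 genes for bZIP factors that pair with ATF4 or act beside it showed 4 rises and 2 falls with the inhibitor. Over the 18343 names well above background, 9.55% were higher and 7.32% lower in that comparison. *Cebpa*, a regulator of myeloid differentiation, read 11.14 and 11.05 in untreated, 7.76 and 7.47 in LPS, and 10.79 and 10.18 in LPS+USP7i cells. It fell by 3.48 with LPS (adjusted p = 0.00500) and rose by 2.86 over LPS with the inhibitor (adjusted p = 0.0166). *Cebpg*, a known partner of ATF4 in amino acid control, followed the same course, with differences of −1.09 and 1.14 (adjusted p = 0.00640 and 0.0151). *Cebpb* was 0.92 higher with the inhibitor (adjusted p = 0.0321). *Cebpd*, an acute inflammatory factor, had the course of *Nupr1*: 3.09 with LPS and −2.69 with the inhibitor (adjusted p = 0.00450 and 0.0146). *Maf* was lower with the inhibitor by −1.97 (adjusted p = 0.00992). With LPS, *Jdp2* rose by 4.58 (adjusted p = 0.00246) and *Batf3* fell by 1.15 (adjusted p = 0.0106). The list's median was −0.06 for LPS and 0.49 for the inhibitor against LPS.

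Among 10 genes for amino acid transporters of the ATF4 response, 8 of them well above background in a group, the inhibitor raised 2 past the threshold and lowered 0, where 9.55% and 7.32% of the 18343 names were called. The median difference was 1.43. *Slc7a11*, the cystine transporter that supplies glutathione synthesis, read 4.77 and 5.15 in untreated, 8.43 and 8.85 in LPS, and 10.45 and 11.22 in LPS+USP7i cells. It increased at each step without overlap, by 3.68 with LPS (adjusted p = 0.00766) and by a further 2.20 with the inhibitor (adjusted p = 0.0406). *Slc38a2*, a neutral amino acid transporter induced by starvation, followed *Trib3* instead, with 12.54 and 12.70, 10.84 and 10.79, and 13.39 and 12.68. It fell by 1.81 with LPS (adjusted p = 0.0203) and was 2.22 higher with the inhibitor than with LPS (adjusted p = 0.0257). LPS also raised *Slc1a4* (1.48) and *Slc7a1* (0.86), with adjusted p values of 0.0192 and 0.0286.

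Of 13 genes for aminoacyl-tRNA synthetases and tRNA export of the ATF4 response, 4 were higher with the inhibitor and 1 was lower. The shares among the 18343 names were 9.55% and 7.32%. The largest rises were those of *Aars* (1.13, adjusted p = 0.0176), *Nars* (0.85, adjusted p = 0.0195), and *Cars* (0.82, adjusted p = 0.0186). *Wars*, which is also interferon-inducible, rose by 0.86 with LPS (adjusted p = 0.0288) and fell by 1.09 with the inhibitor (adjusted p = 0.0308). LPS lowered *Sars* (−0.91), *Xpot* (−0.77), and *Nars* (−0.39), with adjusted p values of 0.0206, 0.0206, and 0.0497. Of 15 genes for serine, one-carbon, and proline enzymes, 12 were well above background in at least 1 group. With the inhibitor against LPS, 0 of the 15 were called (limma), beside the 9.55% and 7.32% of the 18343 names. With LPS, *Cth*, which makes cysteine, was at least 10.6-fold higher (adjusted p = 0.00736), a bound, since it was not well above background in untreated cells. *Pck2* was at least 2.08-fold lower with LPS (adjusted p = 0.00311), where it was not well above background. Such a bound sets the brighter group against the dimmest signal of an array that the scanner software still placed well above background. *Got1* fell by 0.91 with LPS (adjusted p = 0.00604).

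The list of 19 other ATF4 and CHOP targets held *Hmox1* and *Gdf15*, whose rises with the inhibitor were the largest among the called genes of these lists. *Gdf15*, which encodes a stress-induced secreted factor, read 11.54 and 11.85 in untreated, 10.53 and 10.22 in LPS, and 15.02 and 14.11 in LPS+USP7i cells. The inhibitor arrays were far above the other 4, 18.2-fold above LPS (4.19, SE 0.36, adjusted p = 0.0166). *Hmox1*, a heme-degrading enzyme that NRF2 also controls, read 14.66 and 14.24, 13.86 and 13.30, and 18.06 and 18.15. It was 23.0-fold higher with the inhibitor than with LPS (4.52, SE 0.26, adjusted p = 0.0114). *Vegfa* fell by 2.76 with LPS and rose by 2.25 over LPS with the inhibitor (adjusted p = 0.0163 and 0.0443). *Cdkn1a* and *Herpud1* were lower with the inhibitor by −1.08 and −0.76 (adjusted p = 0.0355 and 0.0465). In all, 6 of the 19 were higher and 2 lower with the inhibitor, with a median of 0.51. LPS raised 5, among them *Fam129a* (2.55), *Cdkn1a* (2.51), and *Bcl2l11* (2.45). It lowered 3, *Vegfa*, *Klhl24* (−2.57), and *Eif4ebp1* (−0.95). The size for *Klhl24* is uncertain, since 1 of its LPS arrays was not well above background. Of the 18343 names, 9.55% were higher and 7.32% lower with the inhibitor against LPS, and 13.8% and 22.9% with LPS.

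**Figure D4:**
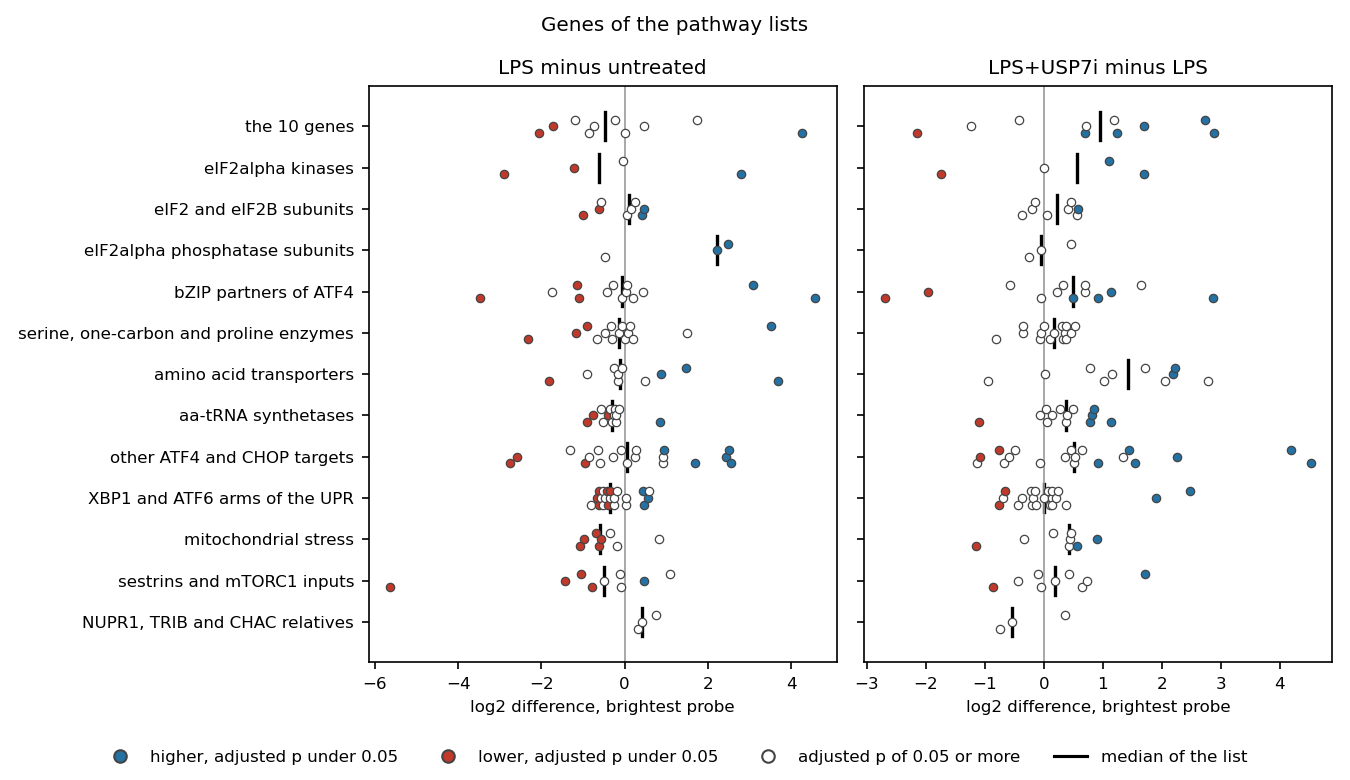
Log2 differences by the brightest probe (horizontal axes, scaled separately) of the genes in the 10-gene group and in 12 pathway lists (rows) for LPS minus untreated and LPS+USP7i minus LPS, with a vertical bar at each list's median. Filled circles have an adjusted p under 0.05. The median with the inhibitor is 0.95 for the 10 genes, 1.43 for amino acid transporters, and 0.01 for the XBP1 and ATF6 arms.

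Genes of the XBP1 and ATF6 arms of the unfolded protein response were called at about the rate of all names well above background: with the inhibitor, 2 of 21 were higher and 2 lower, against 9.55% and 7.32%, and 17 were not called, with a median of 0.01. *Hspa5* (BiP), the main chaperone of the endoplasmic reticulum, was level between LPS (15.80 and 15.73) and LPS+USP7i (15.78 and 15.77), with a difference of 0.01 (adjusted p = 0.991). The rises were *Dnajb9* (2.48, adjusted p = 0.0171) and *Ern1* (1.91, adjusted p = 0.0268), and the falls *Sel1l* (−0.76, adjusted p = 0.0394) and *Syvn1* (−0.67, adjusted p = 0.0212). With LPS, 3 of the 21 were higher, *Sel1l* (0.56), *Hspa5* (0.48), and *Syvn1* (0.45). A further 6 were lower, led by *Atf6* (−0.67), *Hsp90b1* (−0.61), and *Sec61b* (−0.61). Of the 18343 names, 13.8% were higher and 22.9% lower with LPS. Of 8 genes of mitochondrial stress, LPS lowered 5, against 22.9% of the 18343 names. These were led by *Oma1* (−1.07), *Htra2* (−0.99), and *Lonp1* (−0.68). The inhibitor raised *Hspa9* (0.90) and *Hspd1* (0.56) and lowered *Yme1l1* (−1.15), with adjusted p values of 0.0158, 0.0278, and 0.0443.

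Of 9 genes for other sestrins and mTORC1 inputs, *Sesn1* had the largest difference, reading 13.61 and 13.29 in untreated, 7.77 and 7.85 in LPS, and 9.79 and 9.26 in LPS+USP7i cells. LPS lowered it 49.7-fold (−5.64, SE 0.23, adjusted p = 0.00291), and the inhibitor raised it 3.28-fold over LPS (1.71, adjusted p = 0.0308), to a level still below untreated cells. *Mtor* was lower with the inhibitor at its brightest probe (−0.86, adjusted p = 0.0163), and its other probe differed by −0.35 (adjusted p = 0.133). LPS also lowered *Tsc1* (−1.43) and *Gatsl3* (−1.05) and raised *Rheb* (0.46), with adjusted p values of 0.0147, 0.0156, and 0.0378. Among the closest relatives of *Trib3* and *Chac1*, none of *Trib1*, *Trib2*, and *Chac2* was called in any of the 3 comparisons (0 of 3, limma). *Nupr2*, the listed relative of *Nupr1*, was not found among the gene names of the array. *Trib1* read 8.71 and 8.63 in untreated, 9.51 and 8.67 in LPS, and 10.22 and 8.69 in LPS+USP7i cells, so with LPS and with LPS+USP7i its replicates were further apart than the group means. *Chac2* differed by 0.74 with LPS and −0.75 with the inhibitor (adjusted p = 0.168 and 0.214), and *Trib2* was near background on all 6 arrays.

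*Usp7*, the gene of the inhibitor's target, read 11.95 and 11.98 in untreated, 12.42 and 12.40 in LPS, and 12.10 and 12.43 in LPS+USP7i cells at its brightest probe. Inhibitor and LPS arrays overlapped, and no comparison passed (0.44 for LPS and −0.14 for the inhibitor against LPS, adjusted p = 0.101 and 0.611). The mRNA level does not measure the activity that HBX41108 blocks.

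The mean of the 10 genes, each centered on its own mean over the 6 arrays, was −0.27 and −0.18 in untreated, −0.25 and −0.26 in LPS, and 0.51 and 0.45 in LPS+USP7i cells. Among 10388 other named genes well above background on every array, the 5 whose centered values over the 6 arrays were nearest to this mean by Euclidean distance were *Zfp330* (0.082), *Psmc5* (0.13), *Lamp3* (0.14), *9130008F23Rik* (0.15), and *Actr1b* (0.15). *Psmc5* encodes a proteasome subunit, and it read 12.57 and 12.71, 12.66 and 12.57, and 13.33 and 13.19. Each of the 5 was level between untreated and LPS cells and higher on both inhibitor arrays. Differences of opposite sign with LPS among the 10 genes cancel in the mean.

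The markers fixed for other cell types gave the following. Of 9 macrophage markers, all were well above background on both arrays of a group. *Cd14* rose by 1.70 with LPS and *Itgam* fell by 0.65 (adjusted p = 0.00500 and 0.0237), and *Cd14* and *Fcgr1* were lower with the inhibitor (−1.33 and −1.61, adjusted p = 0.0176 and 0.0318). Of 9 neutrophil, 8 T, B, and NK cell, and 6 mast cell, basophil, and erythroid markers, 0 were called in any comparison (limma). In these 3 lists, 7, 4, and 0 markers were well above background on both arrays of a group. A neutrophil and a B cell gene differed between replicate numbers instead: *S100a9* read 7.69 and 10.72, 9.54 and 12.38, and 8.35 and 11.57, and *Ms4a1* read 6.66 and 2.67, 7.94 and 5.26, and 7.07 and 4.62. Replicate 2 was thus the higher for the neutrophil gene and replicate 1 for the B cell gene in all 3 groups. Among dendritic and stromal markers, *Zbtb46* was at least 5.65-fold higher with LPS (adjusted p = 0.00435), and *Pdgfrb* was called higher with LPS (5.29, adjusted p = 0.0323). Of the untreated arrays, 1 was well above background for *Pdgfrb*, so the size of that difference is uncertain. Of 5 dendritic and 6 stromal markers, 2 each were well above background on both arrays of a group. With the inhibitor against LPS, 0 of the 5 and 0 of the 6 were called (limma). *Pdgfrb* nonetheless differed by −4.77 there (adjusted p = 0.0642), with 8.89 on both LPS arrays and 3.02 and 5.22 on the inhibitor arrays, of which 1 was well above background. The part of other cell types in the values of the 10 genes was not tested.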

How the data were processed

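RNA of 6 macrophage cultures was hybridized to 1-color Agilent arrays. The authors deposited scanner files, in which Agilent Feature Extraction 10.7.3.1 had turned spots into background-corrected intensity values not normalized between arrays, and a deposited table of log2 values from limma, used as an alternative. Its values correlated with the log2 scanner signal with r = 0.985, and its column medians were 5.07, 5.10, 5.09, 5.09, 5.10, and 5.09.

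Here the log2 processed signal was quantile-normalized over spots that were not controls, 119 to 172 flagged spots per array were left out, and spots of a probe were averaged. Groups were compared by limma 3.58.1 under R 4.3.3, and files were read with the data.table package (version 1.17.8). A linear model of all 6 arrays was moderated by empirical Bayes (3 residual and 1.05 prior degrees of freedom), and p values were adjusted by Benjamini-Hochberg. The fit was tested on simulated data. Gene names are those of the array design, and RefSeq symbols were used for promoters and for the genes nearest in pattern. The exon or UTR that a probe lies in was not analysed here.

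The members and lists were chosen with earlier results of these data known. Named were all probes of the 10 genes, *Usp7*, the kinases, phosphatase subunits, and relatives, and from every other list up to 3 of the largest rises and 3 of the largest falls past the threshold in LPS minus untreated and LPS+USP7i minus LPS. Shown beyond this rule, with their values known, were *Psph*, *Hspa5* and *Pdgfrb* with the inhibitor, the other probe of *Mtor*, and array values of *S100a9*, *Ms4a1*, and *Psmc5*. The alternatives changed the scaling, the background correction, the source of values, the filter on dim probes, flagged spots, the prior, the arrays in the fit, the probe of a gene, and the size threshold.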

Additional observations from a re-analysis of the deposited data

How the results depend on the processing

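Main values were 3, 6, and 2 of the 10 genes for LPS minus untreated, LPS+USP7i minus LPS, and LPS+USP7i minus untreated, and 9890, 4670, and 7257 probes. For LPS minus untreated, the number of genes was 5 with 75th percentile scaling, 6 with normexp, 5 with the deposited table, 6 with dim probes left out, 5 with a trended prior, and 5 in the fit of the 2 groups compared. For LPS+USP7i minus LPS it was 0 in the fit of 2 groups (limma, 8 at an unadjusted p under 0.05). For LPS+USP7i minus untreated it was 5 with 75th percentile scaling, 4 with normexp, 4 with dim probes left out, and 1 in the fit of 2 groups. Probes for LPS+USP7i minus LPS numbered 7013 with normexp, 7050 with dim probes left out, 0 in the fit of 2 groups (11235 at an unadjusted p under 0.05), and 2946 with a log2 difference of at least 1. With that size threshold, LPS minus untreated gave 5998 and LPS+USP7i minus untreated 4271, and the fit of 2 groups gave 4726 for the latter. Fewer probes tested or fewer arrays are part of the filter's and the 2-group fit's construction, and the cause was not tested otherwise.

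With 75th percentile scaling the median of all probes moved to 0.51 for LPS minus untreated and 0.55 for LPS+USP7i minus untreated, and 27453 and 26527 probes passed. The higher and lower calls were then 21811 and 5642, and 21911 and 4616, against 3959 and 5931, and 3146 and 4111, under quantile normalization. Over probes well above background in a group, the medians were 0.05 and 0.09 with that scaling, against −0.18 and −0.09. For LPS+USP7i minus LPS the median of all probes stayed at −0.00 under both. Over probes well above background it was 0.05 with quantile normalization and 0.02 with 75th percentile scaling.

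Leaving out 1 array at a time gave 1 to 5 genes and 4024 to 9122 probes for LPS minus untreated, 0 to 6 genes and 0 to 4595 probes for LPS+USP7i minus LPS, and 0 to 2 genes and 1569 to 5580 probes for LPS+USP7i minus untreated. The group left with 1 array is then assumed to vary like the others. Where that group is not among those compared, the fit in effect repeats the fit of the 2 groups compared. With the replicate number as a block, 4, 4, and 2 genes and 10351, 3531, and 7588 probes passed. *Atf5* and *Nupr1* were then not called in LPS+USP7i minus LPS (adjusted p = 0.0690 and 0.0716). For LPS+USP7i minus untreated the block called *Chac1* and *Asns* (adjusted p = 0.0323 and 0.0197), and *Nupr1* was lost (0.0568). The deviations of same-numbered arrays correlated with r of 0.47, 0.40, and 0.42 between groups over 20721 probes. Same-numbered arrays also share the first number of their slide position, and what else they share is not stated.

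The counts that follow include settings that leave a difference as it was by construction, and fits that in effect repeat one another. Over all single genes and settings, 384 values kept their direction and side of the threshold, and 53 lost and 35 gained a call. A further 8 changed sign, all of them uncalled. These were *Atf5* in LPS minus untreated with 75th percentile scaling (0.21), *Asns* in the same comparison without untreated replicate 1 and without LPS replicate 2 (−0.05 and −0.05), *Ddit3* in LPS+USP7i minus untreated without untreated replicate 1 and without LPS+USP7i replicate 1 (−0.02 and −0.36), *Phgdh* there without untreated replicate 1 and without LPS+USP7i replicate 2 (−0.16 and −0.06), and *Sesn2* there without LPS+USP7i replicate 2 (0.26). With 1 array left out at a time, *Asns* ran from −0.0466 to 0.0878, *Ddit3* from −0.355 to 0.364, *Phgdh* from −0.158 to 0.231, and *Sesn2* from −0.527 to 0.257. The cause was not tested. Signal over background limits *Chac1* with LPS, which was well above background on 1 of 2 arrays.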
